A study of Mus musculus with 4 samples.

Results

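The genes described here place, keep or remove methyl groups on cytosine in DNA, or supply a cofactor for their removal. They are the DNA methyltransferases Dnmt1, Dnmt3a and Dnmt3b, the maintenance factor Uhrf1, the dioxygenases Tet1, Tet2 and Tet3, the thymine DNA glycosylase Tdg and the isocitrate dehydrogenases Idh1 and Idh2. They were picked by symbol, and all 10 were found among the 55426 genes of the deposited tables. All 10 also passed the filter on low counts that left 13245 genes to test, Tet1 only through its MLL-ENL libraries. RNA came from transformed mouse bone marrow cells that were lineage-negative and that the labels call hematopoietic stem and progenitor cells. One group carries MLL-ENL, a fusion of the amino end of MLL (gene Kmt2a), a histone methyltransferase, with the chromatin reader ENL (gene Mllt1). The other, MLL-ENL ∆YEATS, carries a fusion with ENL residues 372 to 559 alone and so lacks the YEATS domain, which binds acylated histone lysines. Both groups hold an MLL fusion and were grown in medium with 15% serum, and cells without a fusion were not analysed here. Each group has 2 libraries, which the submitters call technical replicates, so p-values measure the spread between such libraries, and genotype and cell line cannot be told apart. The labels do not state the mouse strain or age, how many lines stand behind a genotype, or which ENL residues the longer fusion holds.

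In mammals most cytosine methylation sits at CpG dinucleotides, where it is read by repressive proteins. Dnmt3a and Dnmt3b add methyl groups to unmethylated CpG sites, whereas Dnmt1, guided by Uhrf1 to newly copied DNA, restores the pattern after each round of replication. TET enzymes oxidise the methyl group in a reaction that uses alpha-ketoglutarate and iron, and Tdg cuts out the most oxidised bases so that base excision repair can put back plain cytosine. Idh1 in the cytosol and Idh2 in mitochondria make alpha-ketoglutarate from isocitrate. Mutations of DNMT3A, TET2, IDH1 and IDH2 are well known in human myeloid leukaemia, and Dnmt3a and Tet2 restrain the self-renewal of mouse blood stem cells.

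Promoter sequence is shown for the maintenance pair, for both kinds of Dnmt3a start and for the member window richest in CpG, as a description that was not tested against expression. RefSeq promoter windows (GRCm38.p6) of 300 bases, 250 before a start and 50 after it, matched all 10 members with 16 windows. These held 2 to 57 CpG, against a median of 7 over 32851 windows of all genes. Tet2 had 57, more than 99.8% of windows. Dnmt3a has upstream starts with 46 and 47 CpG and an internal start with 18. The first pair of stretches below comes from Dnmt1 and Uhrf1, the maintenance pair, and the capitals mark TTTCGCGC or its reverse complement, a form of the site bound by E2F factors, the regulators of S-phase genes. The other stretches are the 100 bases before a start of Dnmt3a or Tet2, with CpG in capitals.
Dnmt1 (start at 20952623), chr9:20952774-20952873, minus strand: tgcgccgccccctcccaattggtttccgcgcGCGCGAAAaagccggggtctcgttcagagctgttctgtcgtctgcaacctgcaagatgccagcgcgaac
Uhrf1 (start at 56304313), chr17:56304097-56304196, plus strand: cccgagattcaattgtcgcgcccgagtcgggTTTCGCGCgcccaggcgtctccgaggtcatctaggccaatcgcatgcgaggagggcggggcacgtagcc
Dnmt3a (upstream start at 3807160), chr12:3807060-3807159, plus strand: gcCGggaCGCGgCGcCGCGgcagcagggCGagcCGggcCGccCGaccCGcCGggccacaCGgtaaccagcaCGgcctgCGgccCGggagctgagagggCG
Dnmt3a (internal start at 3891744), chr12:3891644-3891743, plus strand: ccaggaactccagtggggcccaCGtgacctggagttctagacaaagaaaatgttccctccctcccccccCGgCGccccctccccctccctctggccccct
Tet2 (start at 133544390), chr3:133544391-133544490, minus strand: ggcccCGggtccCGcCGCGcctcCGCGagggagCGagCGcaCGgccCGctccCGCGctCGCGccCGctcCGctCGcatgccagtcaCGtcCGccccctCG
TTTCGCGC was searched on both strands together with TTTGGCGC and TTTCCCGC, and these letters were in 0.323%, 0.514% and 1.07% of all windows and any of the 3 in 1.84%. Of the 16 member windows 2 held one, both with TTTCGCGC, at 219 bases before the Dnmt1 start and 185 before the Uhrf1 start. The Dnmt1 window also held TTTGGCGC or its reverse complement, outside the stretch shown. These matches are letters in a window and not measured sites.

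Levels are given as CPM, a gene's counts scaled to a common library size. Total expected counts ran from 27812855 to 28814798 per library. The MLL-ENL pair was further apart (SD of the log2 ratio over tested genes 0.474) than the MLL-ENL ∆YEATS pair (0.293). Without 1 MLL-ENL library that closer pair alone set the spread, and far more genes were called. Calls of individual members in such fits are therefore not given. Longer genes had relatively fewer counts in MLL-ENL replicate 1 than in its partner (log2 ratio against exonic length, Spearman's rho = -0.391 across 13237 genes, which share these 2 libraries and are not replicates), so values that rest on one MLL-ENL library are given with and without it. The annotated mouse genes Mllt1 (67.7 and 62.1 against 64.0 and 59.3 CPM) and Kmt2a (51.9 and 84.1 against 70.5 and 67.9 CPM) did not pass the test, and neither is a check of the fusion, whose own sequence was not counted. Of 38 markers of erythroid, B, T and NK, megakaryocyte, mast or basophil and stromal or endothelial cells, 22 were at 0 in all libraries and 0 of 4 tested passed the test, and a list summed to between 0 and 8.55 CPM in a library. Hba-a1, Cd3e, Cpa3 and Cdh5 were at 0 throughout. The 4 tested were found in every library. Mcpt8 was at 5.71 and 3.95 against 2.86 and 3.49 CPM and Ms4a2 at 2.84 and 3.27 against 1.81 and 2.65 CPM. Gp1ba was at 2.05 and 1.03 against 0.715 and 1.19 CPM and Klf1 at 1.34 and 0.96 against 1.23 and 1.05 CPM. Of 9 progenitor markers Slamf1 was at 0 and Cd34 had 0, 0, 3 and 3 counts. Kit, Cd48 and Meis1 were called lower and Gata2 higher in MLL-ENL ∆YEATS, 80% of the 5 tested against 16.9% of all tested genes. That share includes Cd48, at 94 and 139 against 1 and 2 counts. Cd48 passed the filter only through its MLL-ENL libraries, so only a fall could be tested for it. Hoxa9, the progenitor marker with the most reads, was at 267 and 269 against 255 and 263 CPM and was not called. The 13 granulocyte and monocyte markers summed to 7885 and 6820 CPM with MLL-ENL and to 4508 and 4541 CPM with MLL-ENL ∆YEATS. Elane alone went from 3728 and 3106 to 1773 and 1817 CPM. Of the 13, 3 were called higher (S100a8, S100a9, Csf1r) and 5 lower (Mpo, Elane, Prtn3, Ms4a3, Cebpa), a share of 61.5%. These shifts in maturation genes stand beside every result on the members below, and their part in those results was not tested.

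Cells with the shortened fusion had more Dnmt3a RNA and less Idh1 RNA. Of the 10 members 1 was called higher (Dnmt3a) and 2 lower (Idh1, Tet1) at an adjusted p under 0.05 in edgeR's quasi-likelihood test, adjusted over all genes. Over all tested genes 16.9% were called, 7.04% higher and 9.84% lower. Tet1 passed the filter only through the group where it is high, so it could be tested only for a fall, and its call adds nothing to the count: among the other 9 members 1 was higher and 1 lower. At an unadjusted p under 0.05 it was 4 of 10 members, with Dnmt1 added, against 33.3% of all tested genes. Libraries of the groups did not overlap for 8 members, all but Uhrf1 and Tet3, against 64.3% of all tested genes. The median log2 fold change (MLL-ENL ∆YEATS minus MLL-ENL) was 0.14 over the members and -0.01 over all tested genes. The 3 calls ended without either MLL-ENL ∆YEATS library and with limma on log2 FPKM.

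**Figure D1:**
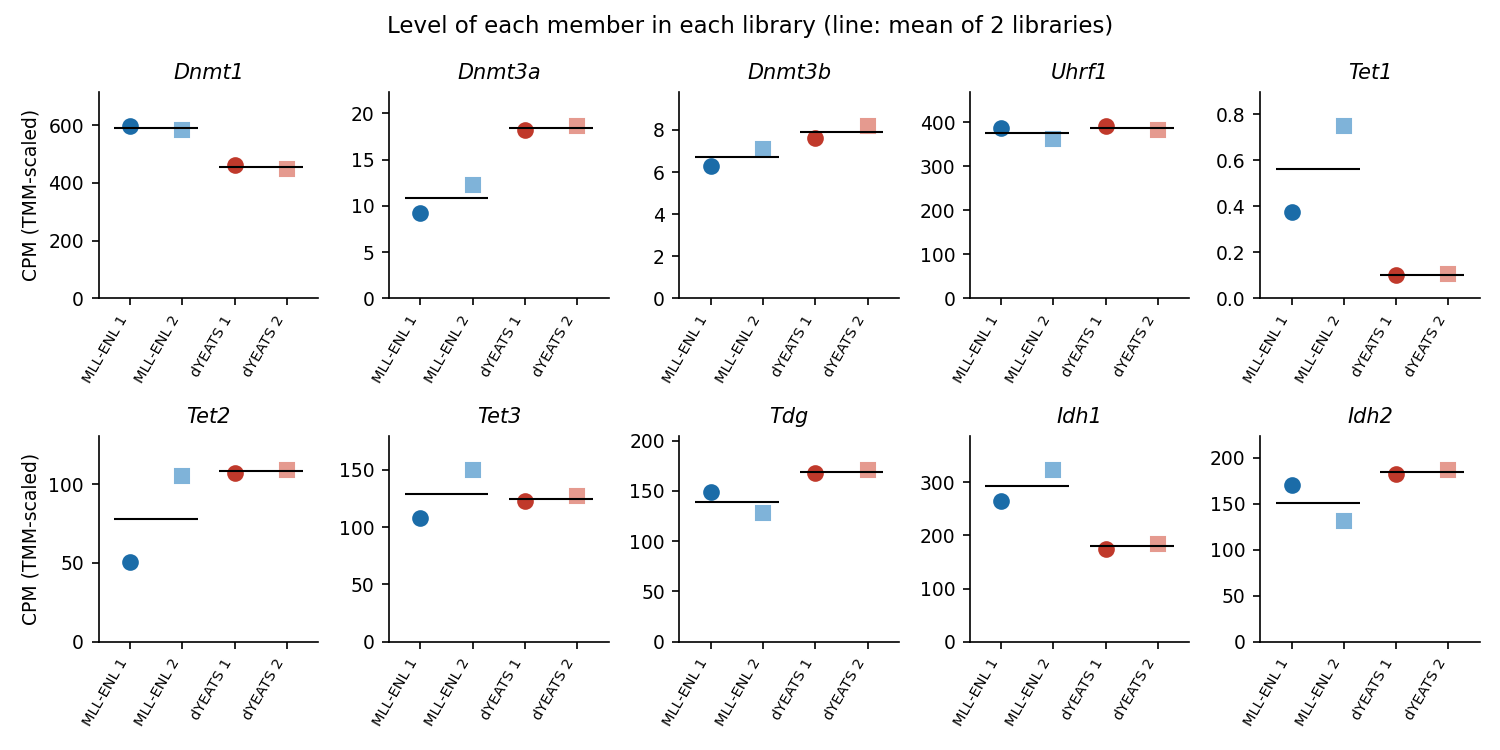
Level of each of the 10 members in CPM (scaled with TMM factors; vertical axes start at 0) in the 4 libraries, with a line at the mean of each group of 2. The MLL-ENL ∆YEATS points lie close together in every panel, whereas the MLL-ENL points spread widely for Tet2 (50.5 and 105 CPM) and Tet1 (0.373 and 0.747 CPM).

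Dnmt1 copies methylation onto the daughter strand. It lies on chromosome 9 (20907209 to 20959888, GRCm38, minus strand) and was the member with the most reads. Its level was 596 and 582 CPM with MLL-ENL and 462 and 448 CPM with MLL-ENL ∆YEATS. Both mutant libraries were thus below both MLL-ENL libraries, and the gap was wider than the distance within either pair (589 ± 9.42 against 455 ± 10.3 CPM, SD, n = 2). The log2 fold change of -0.37 ± 0.10 (SE) did not pass the test across all genes (edgeR adjusted p = 0.0638). It was -0.36 and -0.39 without MLL-ENL replicate 1 or 2, and it was called once the gene-length trend was removed (-0.45, edgeR adjusted p = 0.0372). Without either MLL-ENL ∆YEATS library it was not called (adjusted p = 0.683 and 0.748).

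Uhrf1 binds hemimethylated DNA and brings Dnmt1 to it. The gene (chromosome 17, 56303321 to 56323486, plus strand) was at 387 and 363 CPM against 391 and 383 CPM. Libraries of the groups overlapped, and the log2 fold change was 0.05 ± 0.10 (SE; edgeR adjusted p = 0.796). Without MLL-ENL replicate 1 or 2 it was 0.09 or 0.0007. The ratio of Dnmt1 to Uhrf1 in CPM was 1.54 and 1.60 with MLL-ENL and 1.18 and 1.17 with MLL-ENL ∆YEATS. Per length, in FPKM, it was 0.875 and 0.766 against 0.57 and 0.557, so Dnmt1 was below Uhrf1 in every library. On both scales the ratio was lower in both mutant libraries. Both genes hold the TTTCGCGC letters shown above, and whether their changes differ was not tested.

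Dnmt3a, a de novo methyltransferase, rose. The gene (chromosome 12, 3806007 to 3914443, plus strand) had 9.26 and 12.3 CPM with MLL-ENL and 18.2 and 18.6 CPM with MLL-ENL ∆YEATS. Both mutant libraries lay above both others. The log2 fold change was 0.77 ± 0.17 (SE), or 1.7-fold (edgeR adjusted p = 0.0364). It was 0.57 and 0.99 without MLL-ENL replicate 1 or 2. Without MLL-ENL ∆YEATS replicate 1 or 2 the values were 0.78 and 0.75 and the adjusted p 0.108 and 0.126. These values rest on 248, 347, 535 and 532 counts.

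Dnmt3b, the other de novo enzyme (chromosome 2, 153649450 to 153687730, plus strand), was at 6.31 and 7.11 against 7.63 and 8.17 CPM. The groups did not overlap, but the gap between them was smaller than the distance within either pair, and it was not called (log2 fold change 0.23 ± 0.15 SE, edgeR adjusted p = 0.346). The value was 0.15 without MLL-ENL replicate 1 and 0.32 without replicate 2. Dnmt3a exceeded Dnmt3b in CPM by a ratio of 1.47 and 1.74 with MLL-ENL and 2.39 and 2.27 with MLL-ENL ∆YEATS. On the FPKM scale, per length, that ratio was 1.15, 2.52, 2.86 and 3.29, and the ratio of Dnmt1 to both de novo genes together was 32.6, 17.2, 11.2 and 9.83. Maintenance transcripts outnumbered de novo transcripts in every library, least in the MLL-ENL ∆YEATS libraries, and MLL-ENL replicate 1 stood furthest out.

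Tet2, the TET gene best known from blood, split the MLL-ENL pair. The gene (chromosome 3, 133463679 to 133545139, minus strand) was at 50.5 and 105 CPM in MLL-ENL replicates 1 and 2, a 2.08-fold difference within 1 group, while MLL-ENL ∆YEATS had 107 and 109 CPM. The size of its change therefore depends on 1 library, while its sign was positive in all settings run. With all 4 the log2 fold change was 0.47 ± 0.33 (SE; edgeR adjusted p = 0.380). Without MLL-ENL replicate 1 it was 0.04, and without MLL-ENL replicate 2 it was 1.09. With the replicate number as a block it was 0.56 and was called (adjusted p = 0.0172).

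Tet3 (chromosome 6, 83362373 to 83459084, minus strand) showed the same split within the MLL-ENL pair, at 108 and 150 CPM, with MLL-ENL ∆YEATS between them at 123 and 127 CPM. It had a log2 fold change of -0.05 ± 0.18 (SE; edgeR adjusted p = 0.881). Leaving out MLL-ENL replicate 1 gave -0.26, and leaving out replicate 2 gave 0.21. Summed, Tet2 and Tet3 were at 159 and 255 against 229 and 236 CPM. The mutant libraries lay inside the MLL-ENL range, so no difference in these TET transcripts was resolved by these libraries.

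Tet1 (chromosome 10, 62804570 to 62908996, minus strand), the TET gene of embryonic stem cells, had 10 and 21 counts with MLL-ENL and 3 and 3 with MLL-ENL ∆YEATS, or 0.373, 0.747, 0.102 and 0.105 CPM. Both mutant libraries were at the floor of 3 counts. The ratio of MLL-ENL to MLL-ENL ∆YEATS was 5.46, with a 95% interval of counting error from 2.24 to 16.0 (exact Clopper-Pearson on the split of 31 and 6 counts). The fitted log2 fold change was -2.40 ± 0.58 (SE; edgeR adjusted p = 0.0464). Since the gene passed the filter only through its MLL-ENL libraries, this p is given as a description and not as support for a change. The call ended under 10 of 17 other settings, among them DESeq2 (adjusted p = 0.109), no filter (0.0573) and a robust fit (0.0503). Without MLL-ENL replicate 2 the log2 fold change was -1.81. Only 1.3% of tested genes had a lower mean CPM.

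Tdg (chromosome 10, 82629828 to 82650799, plus strand), which excises oxidised methylcytosine, was at 149 and 128 against 168 and 171 CPM. Both mutant libraries were above both others, by about as much as the MLL-ENL libraries differed. The log2 fold change was 0.29 ± 0.12 (SE; edgeR adjusted p = 0.164). It was 0.40 and 0.19 without MLL-ENL replicate 1 or 2. A processed pseudogene, Tdg-ps, took at most 3 counts in a library.

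Idh1, the cytosolic source of alpha-ketoglutarate, fell. The gene (chromosome 1, 65158616 to 65186500, minus strand) had 264 and 323 CPM with MLL-ENL and 174 and 184 CPM with MLL-ENL ∆YEATS. All mutant values were below all MLL-ENL values, and the log2 fold change was -0.71 ± 0.14 (SE), 1.64-fold lower (edgeR adjusted p = 0.0231). It was -0.85 and -0.56 without MLL-ENL replicate 1 or 2. Without MLL-ENL ∆YEATS replicate 1 or 2 it was -0.68 and -0.76, and the call ended. With limma on log2 FPKM the adjusted p was 0.0697 to 0.176.

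Idh2, the mitochondrial enzyme (chromosome 7, 80094846 to 80115392, minus strand), was at 171 and 131 against 183 and 187 CPM. Both mutant libraries were above the others, yet the MLL-ENL libraries differed from each other by more than replicate 1 differed from the mutant, and the log2 fold change of 0.29 ± 0.16 (SE) was not called (edgeR adjusted p = 0.254). Without MLL-ENL replicate 1 or 2 it was 0.50 or 0.11. On the FPKM scale the ratio of Idh1 to Idh2 was 1.09 and 1.78 with MLL-ENL and 0.694 and 0.705 with MLL-ENL ∆YEATS. Idh1 thus exceeded Idh2 in both libraries of the first group, and Idh2 exceeded Idh1 in both of the second. The summed FPKM of the pair was 240 and 259 against 222 and 229.

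**Figure D2:**
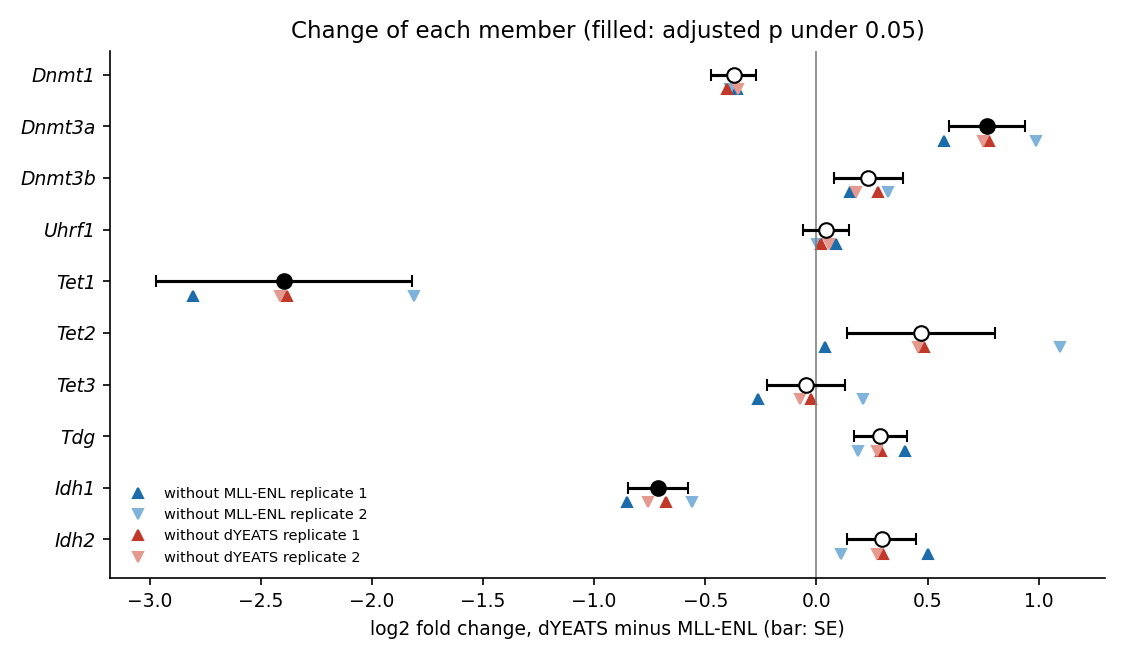
Log2 fold change of each member, MLL-ENL ∆YEATS (written dYEATS) minus MLL-ENL, with its SE as a bar and a filled circle where the adjusted p was under 0.05, and below it the value with each library left out (triangles). Leaving out an MLL-ENL library moved Tet2 between 0.04 and 1.09 and Tet3 between -0.26 and 0.21, whereas Dnmt1 stayed between -0.39 and -0.36.

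Levels can be set against each other only per length, in FPKM. In order of the mean over 4 libraries the members were Uhrf1 (155), Idh1 (119), Idh2 (118), Dnmt1 (105), Tdg (65.9), Tet2 (15.4), Tet3 (13.9), Dnmt3a (5.09), Dnmt3b (2.00) and Tet1 (0.06 FPKM). The ranges of the first 4 ran from 90.8 to 167 FPKM. Uhrf1 and Idh1 overlapped in the MLL-ENL libraries, as did Idh2 and Dnmt1, whereas Idh1 and Idh2 did not overlap in either group and stood in opposite order in them. Tdg was below Dnmt1 and above Tet2 in all 4 libraries. Tet2 and Tet3 overlapped in the MLL-ENL libraries, and in both MLL-ENL ∆YEATS libraries Tet2 was higher, by a ratio of 1.29 and 1.27. Dnmt3a exceeded Dnmt3b in every library, although their MLL-ENL ranges overlapped, and Tet1 was last in all 4.

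**Figure D3:**
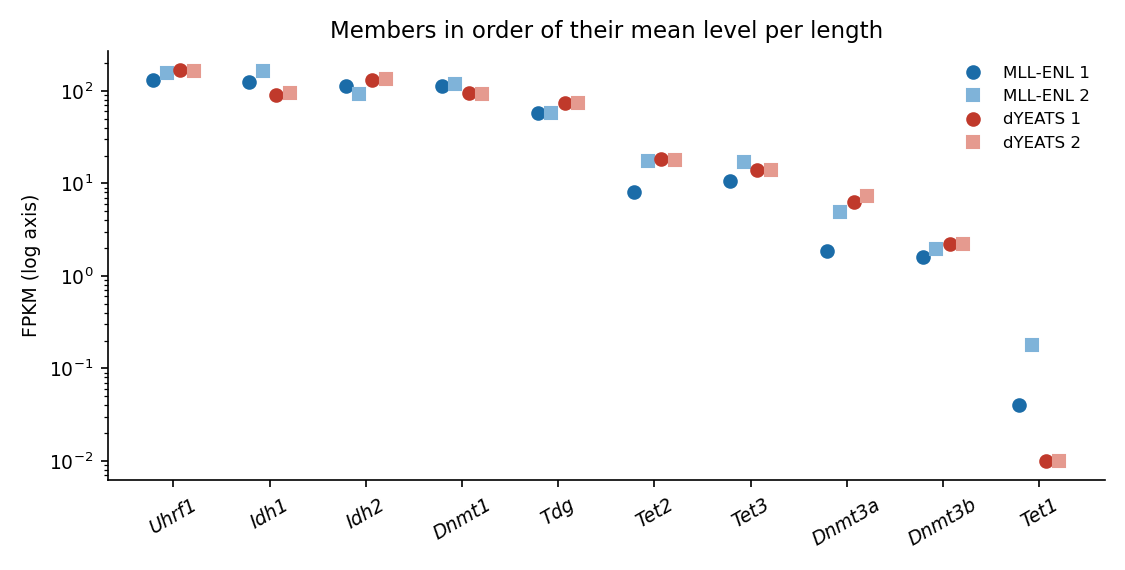
FPKM of the members in each library on a log axis, in order of their mean over the 4 libraries. Uhrf1, Idh1, Idh2, Dnmt1 and Tdg were at 57.8 FPKM or more, Tet2 and Tet3 from 8.03 to 18.2 FPKM, Dnmt3a and Dnmt3b from 1.62 to 7.23 FPKM, and Tet1 at or below 0.18 FPKM.

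Counts and FPKM of the same gene together give the length by which the authors divided, which for a gene with several transcripts depends on the mix that was estimated. Among 245 genes with 1 annotated transcript and at least 1000 counts in each library, the highest over the lowest such length had a median of 1.01, so libraries can be compared on it. For Dnmt3a this length was 4741 nucleotides in MLL-ENL replicate 1 and 2515, 2942 and 2611 nucleotides in MLL-ENL replicate 2 and the MLL-ENL ∆YEATS libraries. Its spread of 1.88-fold was reached by 0.721% of the 4161 genes with several transcripts and at least 100 but under 1000 counts in their lowest library. Dnmt3a has 18 annotated transcripts (GENCODE M21), among them Dnmt3a-201 of 9685 nucleotides from an upstream start and Dnmt3a-203 of 5424 nucleotides from the internal start whose sequence is shown above. Which transcripts made up the difference is not in the gene-level tables. The FPKM of Dnmt3a (1.86, 4.96, 6.31 and 7.23) is divided by this length, whereas its counts are not corrected for it. Limma on log2 FPKM did not call Dnmt3a (adjusted p = 0.184 to 0.370). Which scale follows the number of Dnmt3a transcripts more closely was not tested.

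Among the other members Uhrf1 had 2838 nucleotides in MLL-ENL replicate 1 and 2339 to 2388 in the other libraries, a 1.21-fold spread that 9.87% of 4519 genes with several transcripts and at least 1000 counts reached. Its FPKM (130 and 156 against 167 and 166) therefore differed more between the groups than its CPM. Dnmt1, Dnmt3b, Tet2, Tet3, Tdg, Idh1 and Idh2 had spreads of 1.01- to 1.10-fold. Tet1 had 4195 nucleotides in MLL-ENL replicate 2 and 7902 to 10160 in replicate 1 within the rounding of its FPKM, on 21 and 10 counts. Genes that overlap a member took few reads, at most 7 counts in a library (Gm45203 within Idh2).

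**Figure D4:**
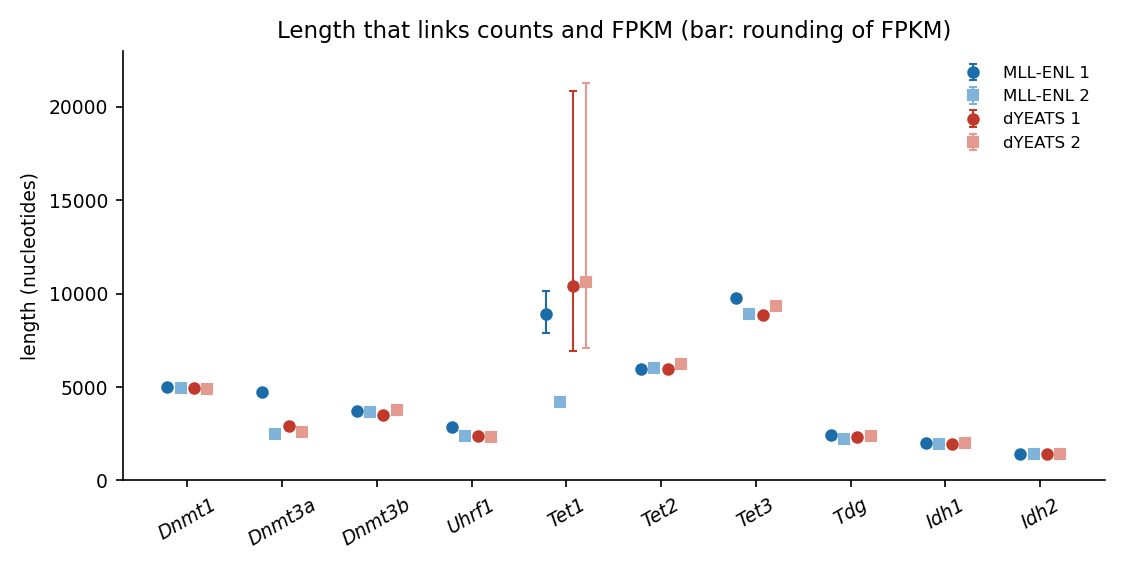
Length that links the deposited counts and FPKM of each member in each library, with bars for the rounding of FPKM to 2 decimals. Dnmt3a in MLL-ENL replicate 1 (4741 nucleotides) lies apart from the other 3 libraries (2515 to 2942), and the bars of Tet1 are wide because its FPKM was 0.01 in both MLL-ENL ∆YEATS libraries.

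Of 13 tested partners of methylation 1 rose and 0 fell: Dnmt3l, a catalytically inactive stimulator of the de novo enzymes, went from 8.74 and 7.40 to 12.1 and 12.6 CPM (log2 fold change 0.62 ± 0.15 SE, edgeR adjusted p = 0.0451), a call that ended under 9 of 18 other settings. The share called was 7.69% against 16.9% of all tested genes, and at an unadjusted p under 0.05 it was 3 of 13 against 33.3%. DESeq2 called 0 in either direction and limma-voom 1 higher and 0 lower, but partners were called in both directions when an MLL-ENL library was left out. Of 9 methyl-CpG readers 1 rose and 0 fell: Zbtb38, a zinc-finger protein that binds methylated CpG, went from 91.9 and 94.4 to 135 and 136 CPM (edgeR adjusted p = 0.0233). The share of readers called was 11.1% against 16.9% of all tested genes, and at an unadjusted p under 0.05 it was 2 of 9 against 33.3%. DESeq2 and limma-voom also called 0 readers lower, but some were called lower when an MLL-ENL library was left out. The list of TET partners also holds vitamin C transporters, and its 3 tested genes were Cxxc1, Ogt and the transporter Slc23a2. Cxxc4 and Cxxc5, also listed, had too few counts to be tested. Of the 3 tested genes 0 passed edgeR's test at an adjusted or an unadjusted p under 0.05, against 16.9% and 33.3% of all tested genes. Those with the smallest p were Cxxc1, which binds unmethylated CpG, and Ogt, which adds N-acetylglucosamine to proteins and binds TET enzymes. Cxxc1 was at 99.6 and 74.6 against 97.5 and 94.1 CPM and Ogt at 100 and 133 against 124 and 124 CPM, so the mutant libraries lay within the MLL-ENL range. DESeq2 and limma-voom called 0 of these 3 as well, but calls arose when an MLL-ENL library was left out.

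In the base excision and deamination list 1 of 20 tested genes was called higher and 2 lower, a share of 15% against 16.9% of all tested genes. Apobec3, a cytidine deaminase that restricts retroviruses, fell from 19.4 and 19.2 to 1.74 and 1.36 CPM (log2 fold change -3.63 ± 0.18 SE, edgeR adjusted p = 0.000384) and was called under all 18 other settings. Wdr76, a protein that binds oxidised methylcytosine, rose from 30.5 and 35 to 47.1 and 47.1 CPM (edgeR adjusted p = 0.0425), and its call ended under 8 of 18. The DNA glycosylase Neil2, chosen after its values were seen, had 39 counts in the MLL-ENL libraries and 5 in the MLL-ENL ∆YEATS libraries, a ratio of 8.25 (95% counting interval 3.25 to 26.8), and passed the filter only through the MLL-ENL libraries.

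Methionine-cycle genes, which make the methyl donor S-adenosylmethionine and recycle its product, had 3 of 10 tested members called higher and 1 lower (40% against 16.9% of all tested genes). Without either MLL-ENL ∆YEATS library 0 of them were called. Mtrr, which reactivates methionine synthase, rose from 22.8 and 29.7 to 42.4 and 41.2 CPM (log2 fold change 0.67 ± 0.16 SE, edgeR adjusted p = 0.0428). Mtap, which salvages methionine, rose from 39.5 and 39.9 to 56.3 and 57.0 CPM (edgeR adjusted p = 0.0292). The adenosine kinase Adk, chosen after its values were seen, rose from 30.9 and 29.9 to 42.9 and 43.6 CPM. Ahcyl2, a relative of the hydrolase of S-adenosylhomocysteine, fell from 15.0 and 17.3 to 8.62 and 9.14 CPM (edgeR adjusted p = 0.0137). The median log2 fold change of the list was 0.17, against -0.01 over all tested genes.

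Among 29 tested enzymes that make or use alpha-ketoglutarate or belong to the citric acid cycle, 1 was called higher and 4 lower, a share of 17.2% against 16.9% of all tested genes. Mdh1, the cytosolic malate dehydrogenase, fell from 62.5 and 66.7 to 3.37 and 3.87 CPM (log2 fold change -4.16 ± 0.14 SE, edgeR adjusted p = 0.000284), under all 18 other settings too. Bcat1, a cytosolic aminotransferase that uses alpha-ketoglutarate, had 78 counts against 9, a ratio of 9.16 (95% counting interval 4.59 to 20.8; edgeR adjusted p = 0.0104). It passed the filter only through its MLL-ENL libraries, so only a fall could be tested, and limma on log2 FPKM did not call it (adjusted p = 0.0682 to 0.237). The alanine aminotransferase Gpt2 (47.6 and 48.8 to 30.2 and 28.3 CPM) and D2hgdh, which clears D-hydroxyglutarate (26.1 and 25.8 to 18.3 and 16.6 CPM), also fell and were chosen after their values were seen. Got1, a cytosolic aminotransferase, rose from 21.8 and 24.1 to 34.4 and 31.8 CPM (edgeR adjusted p = 0.0420). The list's median was 0.03, and 24 of the 29 were not called. Without either MLL-ENL ∆YEATS library the calls of Dnmt3l, Zbtb38, Wdr76, Mtrr, Mtap, Ahcyl2 and Got1 ended, whereas those of Apobec3 and Mdh1 held.

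Replication genes are the usual companions of Dnmt1 and Uhrf1, whose RNA peaks in S phase. Of 26 tested, 2 rose and 0 fell (7.69% against 16.9% of all tested genes), with a median log2 fold change of 0.03. Rrm2, a subunit of ribonucleotide reductase, rose from 177 and 248 to 404 and 405 CPM (edgeR adjusted p = 0.0243) and cyclin E2 (Ccne2) from 46.6 and 57.9 to 77.9 and 79.0 CPM (edgeR adjusted p = 0.0457). The call of Ccne2 ended under 9 of 18 other settings. At an unadjusted p under 0.05 it was 7 of 26 in either direction, against 33.3% of all tested genes. DESeq2 and limma-voom also called 0 lower, but some were called lower when an MLL-ENL library was left out.

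Germline genes that promoter methylation keeps silent in somatic cells stayed near 0 in both groups. Of 26 such genes 11 were at 0 in all libraries, and the whole list summed to 3.25 and 2.60 CPM with MLL-ENL and 2.35 and 2.69 CPM with MLL-ENL ∆YEATS. Of 3 tested, against 16.9% called over all tested genes, 0 were called higher and 1 lower. This was Fkbp6, a meiotic protein, which had 34 counts against 4, a ratio of 8.99 (95% counting interval 3.20 to 34.9; edgeR adjusted p = 0.0127). It passed the filter only through its MLL-ENL libraries, so only a fall could be tested. Piwil2, a piRNA-binding protein, was at 0.859 and 0.925 against 1.23 and 1.36 CPM (edgeR adjusted p = 0.209). At an unadjusted p under 0.05 it was 1 of 3, against 33.3% of all tested genes, and DESeq2 and limma-voom also called 0 higher. DNA methylation itself was not measured in these libraries.

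**Figure D5:**
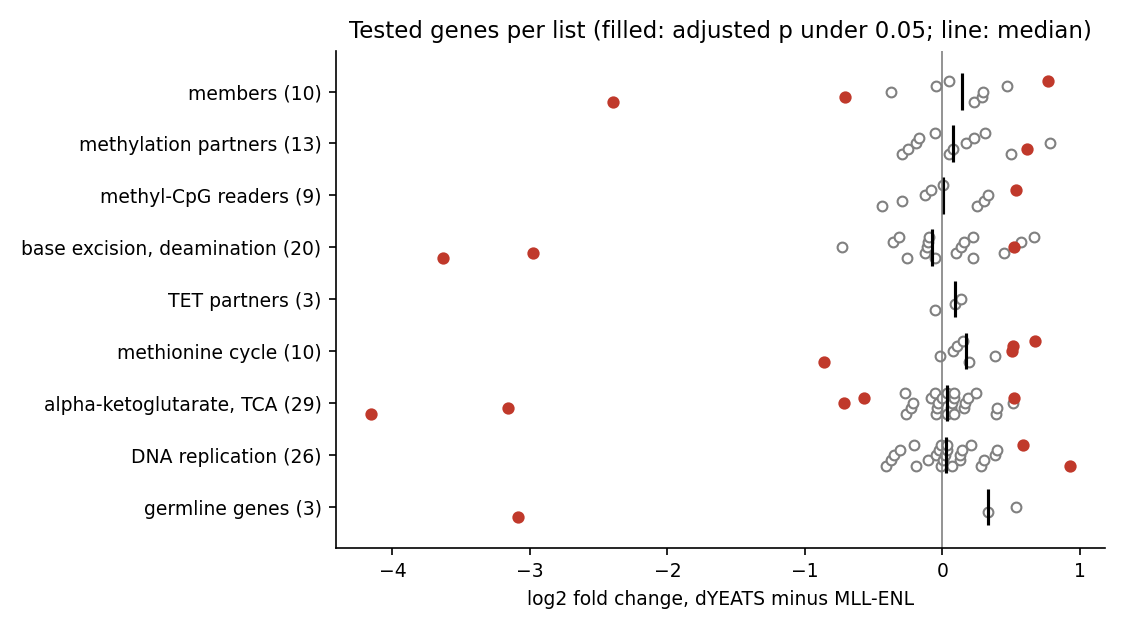
Log2 fold change (MLL-ENL ∆YEATS minus MLL-ENL) of every tested gene in the members and the 8 lists, with the number tested in parentheses, filled circles for an adjusted p under 0.05 and a line at the median. The medians lie between -0.07 and 0.33, and the changes beyond 2 on the log2 scale are those of Tet1, Apobec3, Neil2, Mdh1, Bcat1 and Fkbp6, all lower.

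Profiles over the 4 libraries were compared by the Euclidean distance of centred log2(CPM + 0.5), which rests on 4 points in 2 groups. Closest to Tet1, the called member with the largest fitted change, were Fam221a, Fgd4 and Ifit2 (distances 0.0548, 0.0594 and 0.0603). With Tet1 at 0.102 to 0.747 CPM the added 0.5 CPM flattens its profile, and these genes had log2 fold changes of -0.95, -0.87 and -0.89 against -2.40 for Tet1, so the likeness depends on that constant. Closest to Dnmt1 were Pip4k2a (0.0124), Ikbke (0.0191) and Appl2 (0.0253). Pip4k2a, a phosphoinositide kinase, was at 40.2 and 39.2 against 31.4 and 30 CPM and like Dnmt1 was not called (edgeR adjusted p = 0.0769). In bulk RNA, fewer cells that express a gene and less of its RNA per cell cannot be told apart, for the members as for these genes.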

How the data were processed

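Per the labels' protocols, poly(A) RNA was selected with a Lexogen kit and made into libraries with a Swift kit. RSEM 1.3.3, STAR 2.7.8a, cutadapt 2.3, FastQC 0.11.8 and the build GRCm38 appear in the submitters' processing notes, with settings, annotation and strand use not given in the sources used here. The authors deposited expected counts (RSEM estimates, whole numbers as deposited) and FPKM per gene. Here, counts were filtered with filterByExpr, scaled by TMM and tested with edgeR 4.0.16 (R 4.3.3, glmQLFit with legacy set to true, 2 residual degrees of freedom, prior 3.41, Benjamini-Hochberg adjustment over 13245 genes). SE is the log2 fold change over the square root of F. CPM use TMM-scaled library sizes, and the floor is 3 counts per library (0.102 to 0.112 CPM). Floors and intervals cover counting error only. Positions came from GENCODE M21, which matched 55240 identifiers. The fit was tested on simulated counts. Alternatives were DESeq2 1.42.0, limma 3.58.1 on log2 FPKM (pseudocounts 1 and 0.1), a robust edgeR fit, limma-voom, other scalings and filters, the replicate number as a block, the removal of each library in turn, removal of mitochondrial, ribosomal and haemoglobin genes, and removal of a gene-length trend (lowess span 0.3). All 10 members are named, and of each list the 2 called genes that changed most, higher and lower, with a mean of at least 1 CPM in whichever group was higher, or else the 2 with the smallest p. For the profiles the rule takes the 3 protein-coding genes nearest to Dnmt1 and to the called member of largest change. Members, lists and this rule were chosen with earlier results of these data known. All symbols of the 8 pathway and 8 marker lists matched.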

Additional observations from a re-analysis of the deposited data

How the results depend on the processing

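With 2 libraries per group the number of calls depends strongly on which libraries set the spread. Against 932 genes higher and 1303 lower, leaving out 1 library gave 548 to 4598 higher and 844 to 4501 lower. A minimum of 5 CPM in 2 libraries gave 545 and 805 of fewer genes tested, and limma on unfiltered log2(FPKM + 1) 293 and 381. Limma on filtered log2(FPKM + 1) gave 837 lower. The replicate block gave 1435 higher and 1698 lower. Same-numbered libraries did not deviate together (correlation of deviations from the group means -0.0677), so the numbers are not taken as pairs.

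Among the members 1 was higher and 2 lower. Without 1 library it was 0 to 6 higher and 0 to 4 lower, and with limma on log2 FPKM 0 and 0 at either pseudocount and without a filter. With the replicate block 2 were higher, Tet2 being added. The number lower was 1 with scaling by library totals, no filter, a minimum of 5 CPM, DESeq2 and the robust fit, and it was the call of Tet1 that ended in each case, being untested at 5 CPM. The cause of these shifts was not tested. Tet3 changed sign without MLL-ENL replicate 2 (0.21; range without 1 library -0.26 to 0.21) and with limma on log2 FPKM (0.0573 at a pseudocount of 1 with or without the filter, 0.0636 at 0.1). Outside the members Cxxc1 ranged from -0.0558 to 0.36 and Ogt from -0.10 to 0.31 without 1 library. Over all settings of the members 143 values kept their sign and side of the threshold, 20 lost a call, 12 gained one and 4 changed sign.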
